A study of Macaca mulatta with 2 samples.

Results

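Potassium channel subunits outside the two-pore family were followed in the prefrontal cortex of infant rhesus macaques. The members were the genes whose symbol in the count table starts with KCN but not with KCNK and that reached 1 CPM (reads per gene scaled to a common library size) in at least 1 library. Of 78 such symbols in a table of 33618 genes, 68 met this condition. They were 55 pore-forming subunits and 13 auxiliary subunits. The data came from 1 control animal and 1 animal given sevoflurane, an inhaled general anesthetic. Both were 28 days old by the labels. The labels place exposures of 4 h at 2.5 to 3% sevoflurane on about days 7, 14 and 28, days that the study's results section also gives. The study's methods instead give later days for the repeats, and tissue collection right after the last. What the control animal received is not given in the sources used here. The design text speaks of 3 animals per group, and the others were not analysed here. With 1 library per group there are no replicates and no test, so every difference below is between these 2 libraries and not between the conditions.

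Potassium channels let potassium leave the neuron and so set its resting potential, end its action potentials and limit how fast it can fire again. Voltage-gated subunits (Kv) open on depolarization, inward rectifiers carry current near rest, and calcium- and sodium-activated channels answer to the ions that enter during firing. Kv channels are built from 4 subunits of the same kind or of related kinds, and auxiliary subunits change their gating and transport, so the mix of transcripts bears on which channels a cortical cell can assemble.

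Reads on genes numbered 16960880 (control) and 9839105 (sevoflurane), so 1 read was worth 0.0590 CPM in the first and 0.102 CPM in the second. The members took 0.645% of the control reads and 0.704% of the sevoflurane reads. The marker genes of cortical neurons were abundant in both libraries, with SLC17A7, the vesicular glutamate transporter, at 998 control and 914 sevoflurane CPM. The 7 Y-linked genes had 3 control and 4308 sevoflurane reads, so the animals differ in more than exposure, and animal, sex and exposure cannot be told apart. Levels are given as CPM after TMM scaling, and each log2 ratio is sevoflurane over control with an exact 95% interval that covers counting error only. Reads carry no length correction, so levels were compared between libraries for the same gene and not between genes.

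Among the 68 members, 8 were higher in the sevoflurane library by 2-fold or more and 7 were lower by as much, with an interval that excluded equal expression. These are 11.8% and 10.3% of the members, where 7.56% and 5.47% of all 18050 genes tested were counted by the same rule. The higher members included KCNH1, KCNH4, KCNH8, KCNS1, KCNS2 and KCNJ13. The lower members were KCNA3, KCNB2, KCNG1, KCNG3, KCNV1, KCNMB2 and KCNE5. Differences of this size thus occurred in both directions, and the silent subunits, which cannot form a channel alone, supplied 5 of the 15. The set as a whole moved little. Its median log2 ratio was 0.11, beside -0.0048 over all genes tested, and its summed level was 6507 control and 6972 sevoflurane CPM (log2 ratio 0.10, interval 0.09 to 0.11).

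The interval excluded equal expression in 32 members that were higher and 17 that were lower, whatever the size of the difference. That is 47.1% and 25% of the members, beside 28.4% and 28.1% of all genes tested. The median level was 38.2 CPM over the members and 16.6 CPM over all genes tested, and genes with more reads have narrower intervals. The part of read level in these shares was not tested. Where either library reached 5 CPM, 7 of 58 members (12.1%) were in the higher class and 6 (10.3%) in the lower, beside 4.2% and 3.69% of 13569 genes.

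**Figure D1:**
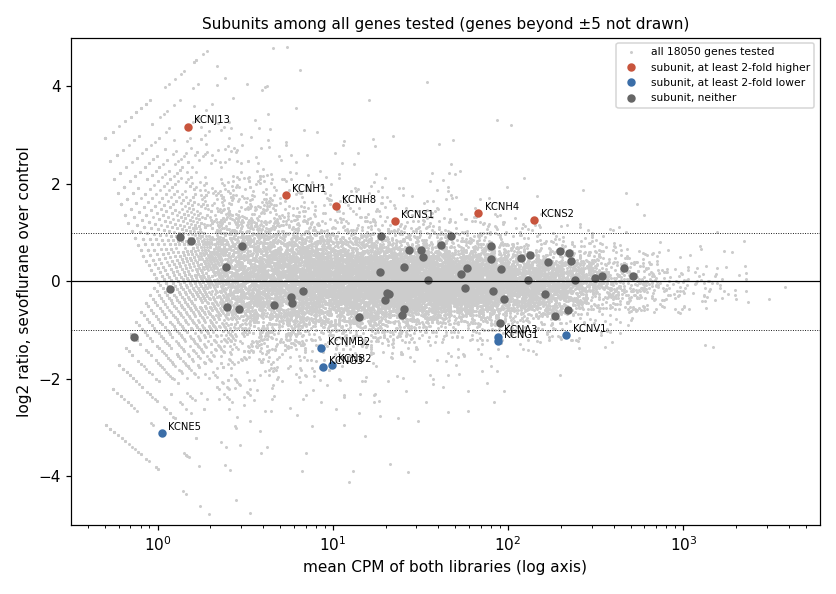
Log2 ratio of sevoflurane over control (vertical axis) against the mean CPM of both libraries (horizontal, log axis), with 1 point per gene for the 18050 genes tested and 64 potassium channel subunits in colour. Genes with ratios beyond the ends of the vertical axis are not drawn. The coloured subunits above the upper and below the lower dotted line, at 2-fold, spread over a wide range of levels, with KCNV1 and KCNS2 at the right.

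Of the 68 members, 64 passed the filter of 1 CPM in both libraries. KCNJ1 and KCNE5 passed it in the control library only and KCNE2 and KCNJ13 in the sevoflurane library only, so these 4 passed only through the library in which they were higher. KCNJ13 and KCNE5 are 2 of the 15 members counted above, and among the 64 that passed in both libraries 7 were higher and 6 lower by the same rule. The share over all genes that passed in both libraries was not computed, so these 2 counts have no matching background. The member closest to the limit was KCNJ1, with 1.06 CPM before scaling in the control, and the closest symbol left out was KCNJ5, with 0.813 CPM in the sevoflurane library (7 and 8 reads). KCNA7, KCNE3, KCNJ15, KCNMB3 and KCNN4 also stayed below it, with at most 8 reads in a library. KCNA10, KCNAB1, KCNU1 and KCNV2 were listed at 0 in both. KCNAB1 encodes a Kv beta subunit that is known from brain, and how the annotation behind the counts treats that gene is not given in the sources used here.

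**Figure D2:**
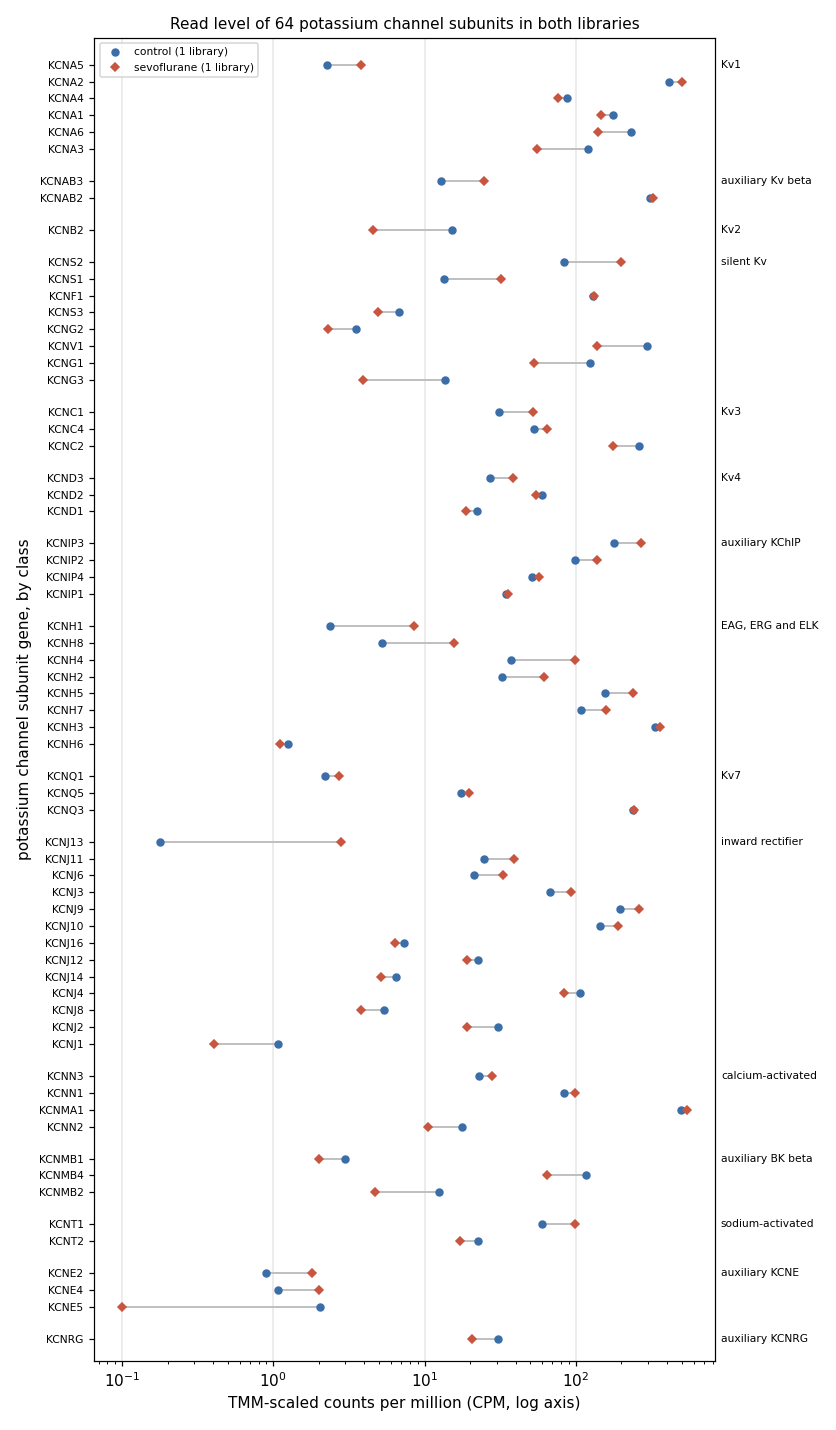
TMM-scaled CPM (log axis) of 64 members in the control library (circles) and the sevoflurane library (diamonds), 1 library each, joined by a line and grouped by class. The KCNH genes lie to the right in the sevoflurane library except KCNH6, whereas the symbols of KCNQ3 and KCNF1 nearly coincide.

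The KCNH genes were mostly higher. They encode the EAG, ERG and ELK channels, Kv relatives with a cyclic-nucleotide-binding homology domain that act on excitability below and around the firing threshold. Of 8 members, 7 were higher in the sevoflurane library beyond counting error, 3 of them at least 2-fold, and the class median was 0.77. Over all genes tested, 28.4% were higher beyond counting error and 7.56% were higher by 2-fold or more. KCNH1, an EAG channel, had 40 control and 84 sevoflurane reads, or 2.38 and 8.46 CPM (log2 ratio 1.77, interval 1.27 to 2.41). KCNH8, an ELK channel, had 88 and 155 reads, or 5.24 and 15.6 CPM (1.55, interval 1.19 to 1.97). KCNH4, another ELK channel, had 626 and 975 reads, or 37.3 and 98.2 CPM, and was 2.64-fold higher (1.39, interval 1.25 to 1.55). These 3 genes stood above the other KCNH genes in the size of the difference. KCNH2, the ERG channel of the heart that is also found in neurons, went from 32.4 to 61.5 CPM (0.92, interval 0.76 to 1.10) and was just short of 2-fold. The members with more reads differed less. KCNH5, the other EAG channel, had 155 and 240 CPM (0.63), and KCNH7, an ERG channel, 108 and 158 CPM (0.55). KCNH3, the ELK channel with the most reads of the class, had 5575 and 3554 reads, or 332 and 358 CPM (0.11, interval 0.05 to 0.17). KCNH6 had 21 and 11 reads, and its interval of -1.37 to 0.94 reached across equal expression. In the RefSeq gene table, KCNH1 shares its span with LOC106993703, which had a log2 ratio of 0.69, and KCNH3 with MCRS1, so the counts of these genes are uncertain to the extent that reads of the overlap were assigned to 1 of them.

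Kv2 channels give the slow delayed rectifier of the cell body and proximal dendrite, and the silent subunits (KCNF, KCNG, KCNS and KCNV) form channels only together with Kv2 subunits. KCNB2, a Kv2 subunit, had 256 control and 45 sevoflurane reads, or 15.2 and 4.53 CPM, and was 3.36-fold lower (log2 ratio -1.72, interval -2.24 to -1.29). It was among the 7 members lower by 2-fold or more.

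The silent subunits went both ways. KCNG3 had 229 control and 39 sevoflurane reads, or 13.6 and 3.93 CPM (log2 ratio -1.76, interval -2.32 to -1.30). KCNG1 had 2068 and 524 reads, or 123 and 52.8 CPM, and was 2.33-fold lower (-1.22, interval -1.36 to -1.08). KCNV1, the silent subunit with the most control reads, had 4931 and 1360 reads, or 293 and 137 CPM, and was 2.14-fold lower (-1.10, interval -1.19 to -1.01). Against these 3 stood a pair of KCNS genes. KCNS2 had 1395 and 1985 reads, or 83.0 and 199.9 CPM, and was 2.41-fold higher (1.27, interval 1.17 to 1.37). KCNS1 had 226 and 317 reads, or 13.45 and 31.9 CPM (1.24, interval 0.996 to 1.4996). Both KCNS genes thus held more reads in the shallower sevoflurane library than in the control. KCNF1 was nearly equal, at 129.7 and 131 CPM (0.02, interval -0.08 to 0.12). KCNG2 (-0.57) and KCNS3 (-0.44), with at most 113 reads in a library, had intervals that reached across equal expression. KCNV1 made up 44.0% of the control and 24.3% of the sevoflurane reads on silent subunits, while KCNS2 made up 12.5% and 35.4%.

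**Figure D3:**
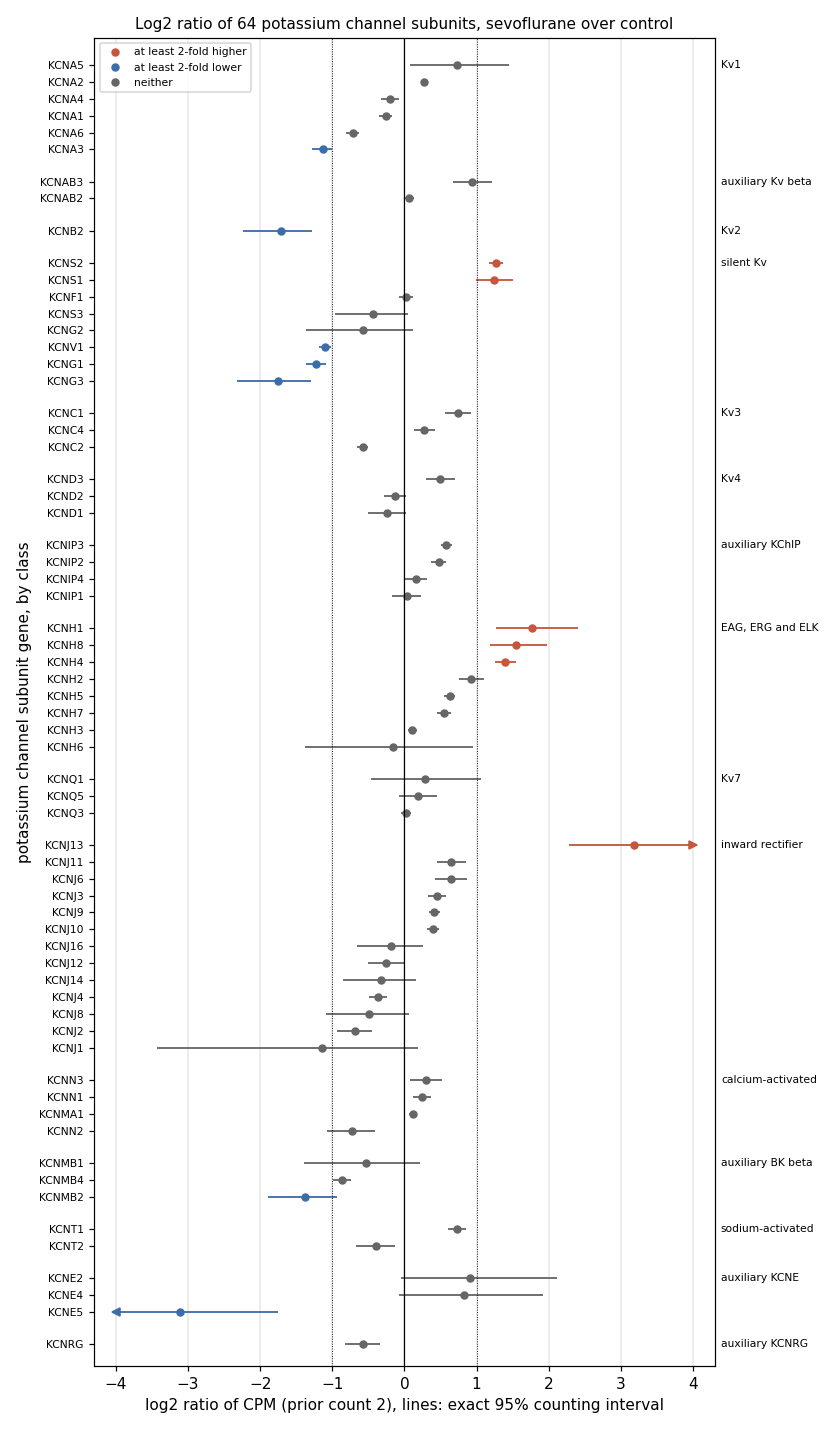
Log2 ratio of sevoflurane over control for 64 members, with the exact 95% counting interval as a line and 2-fold marked by dotted lines, grouped by class and with arrows where an interval leaves the axis. The silent Kv genes split into KCNS1 and KCNS2 on the right and KCNV1, KCNG1 and KCNG3 on the left, and the genes with fewest reads have the widest lines.

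Kv3 channels open at high voltages and close fast, which lets interneurons that contain parvalbumin fire at high rates. KCNC1 had 520 control and 514 sevoflurane reads, or 30.9 and 51.8 CPM (log2 ratio 0.74, interval 0.56 to 0.92). KCNC4 was higher by less, at 52.8 and 63.9 CPM (0.28, interval 0.13 to 0.43). KCNC2 was lower, with 4403 and 1739 reads, or 262 and 175 CPM (-0.58, interval -0.66 to -0.50). Of the 5 interneuron markers, PVALB, which encodes parvalbumin, had 68 and 221 reads (2.42), 3 were lower beyond counting error (GAD1 at -0.23, GAD2 at -0.30, SST at -0.35), and VIP had a ratio of 0.03. Their summed level was 407 control and 359 sevoflurane CPM, and the part of interneuron content in the Kv3 values was not tested. Over all genes tested, 28.1% were lower beyond counting error. In tissue, fewer cells of a type and less RNA per cell cannot be told apart.

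Kv1 channels sit in axons and at their initial segments and set the threshold for firing. KCNA3 had the lowest log2 ratio of the 6 Kv1 genes, with 2030 control and 546 sevoflurane reads, or 121 and 55.0 CPM, and was 2.20-fold lower (log2 ratio -1.13, interval -1.27 to -0.999). KCNA6 had 3864 and 1390 reads, or 230 and 139.97 CPM (-0.72, interval -0.81 to -0.63). KCNA1 and KCNA4 were lower by less, at 176 and 147 CPM (-0.26) and at 87.3 and 75.8 CPM (-0.20). KCNA2 differed from these 4. It had 6940 and 4972 reads, or 413 and 501 CPM, and was slightly higher (0.28, interval 0.22 to 0.33), so that it took 40.1% of the Kv1 reads of the control and 54.3% of those of the sevoflurane library. KCNA5, with 38 reads in each library, had a ratio of 0.72 (interval 0.07 to 1.45). In the RefSeq table, KCNA2 and KCNA3 lie side by side with no other protein-coding gene between them, as do KCNA1, KCNA5 and KCNA6. Ratios of both signs occurred in each group, in the second only through KCNA5, which had few reads. The Kv beta subunits bind Kv1 channels inside the cell and aid their transport. KCNAB2 was nearly equal, at 307 and 322 CPM (0.07, interval 0.00 to 0.13), and KCNAB3 had 216 and 246 reads, or 12.9 and 24.8 CPM (0.94, interval 0.68 to 1.22).

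Kv4 channels carry the fast A-type current of dendrites, and KChIP proteins, encoded by the KCNIP genes, are their calcium-binding partners. KCND2 had 59.5 control and 54.3 sevoflurane CPM (log2 ratio -0.13, interval -0.29 to 0.02), and KCND1 22.1 and 18.7 CPM (-0.24, interval -0.50 to 0.02). Neither differed beyond counting error, while KCND3 had 27.1 and 38.2 CPM (0.49, interval 0.29 to 0.70). None of the 3 Kv4 genes and none of the 4 KChIP genes was 2-fold apart. KCNIP3, which also acts as a calcium-dependent transcription regulator, had 3011 and 2657 reads, or 179 and 268 CPM (0.58, interval 0.50 to 0.65). KCNIP2 had 99.1 and 138 CPM (0.47, interval 0.37 to 0.58), KCNIP4 had 51.2 and 57.2 CPM (0.16), and KCNIP1 had 34.6 and 35.3 CPM (0.03, interval -0.17 to 0.22). Summed over the class, KChIP reads were higher by 0.45 on the log2 scale (interval 0.40 to 0.51), whereas the summed Kv4 reads had a ratio of 0.03 (interval -0.08 to 0.14).

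Kv7 channels carry the M-current, a slow potassium current that holds neurons back from repeated firing. KCNQ3, a subunit of that current, had 4022 control and 2411 sevoflurane reads, or 239 and 243 CPM, and was nearly equal (log2 ratio 0.02, interval -0.05 to 0.09). At this depth its interval leaves room for a difference of at most 0.09 in size. KCNQ5 (17.3 and 19.7 CPM, 0.19) and KCNQ1 (37 and 27 reads, 0.29), best known from heart, also had intervals that reached across equal expression.

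The 13 inward rectifiers had a median log2 ratio of -0.19, while their summed reads had a ratio of 0.25 (interval 0.21 to 0.29). Beyond counting error, 6 were higher and 2 lower, beside 28.4% and 28.1% of all genes tested. The G-protein-gated subunits, which open when inhibitory transmitters act on their receptors, were all higher among the 3 that passed the filter. KCNJ3 had 67.7 and 92.7 CPM (log2 ratio 0.45, interval 0.33 to 0.58), KCNJ6 had 21.1 and 33.0 CPM (0.65, interval 0.43 to 0.87), and KCNJ9 had 196 and 261 CPM (0.41, interval 0.34 to 0.49). Of the 4 strong rectifiers, which hold the resting potential, 2 were lower beyond counting error. KCNJ2 had 517 and 189 reads, or 30.8 and 19.0 CPM (-0.69, interval -0.94 to -0.45), and KCNJ4 had 107 and 82.9 CPM (-0.37, interval -0.49 to -0.25). The intervals of KCNJ12 (-0.25) and KCNJ14 (-0.33) reached across equal expression. KCNJ11, the pore of the ATP-sensitive channel of neurons, had 24.7 and 38.8 CPM (0.65, interval 0.45 to 0.85), and KCNJ8, the corresponding pore of mural cells of vessels, 5.42 and 3.83 CPM (-0.49, interval -1.09 to 0.06). The sulfonylurea receptors that complete these channels, ABCC8 (0.12) and ABCC9 (-0.13), did not differ beyond counting error.

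KCNJ10 encodes the inward rectifier by which astrocytes and oligodendrocytes take up potassium. It had 2438 control and 1896 sevoflurane reads, or 145 and 191 CPM, and was higher (log2 ratio 0.40, interval 0.31 to 0.48), while its partner KCNJ16 had 7.26 and 6.34 CPM (-0.19, interval -0.66 to 0.26). Markers of the cells that hold it were mostly lower. Of 6 astrocyte markers, 5 were lower beyond counting error, GFAP (-1.35) and AQP4 (-1.38) by over 2-fold, and only SLC1A3 was higher (0.27), with a summed level of 6083 control and 4199 sevoflurane CPM. All 5 oligodendrocyte markers were lower, from -1.90 (MOG) to -0.56 (MBP), with a summed level of 3793 and 1873 CPM. Over all genes tested, 28.1% were lower beyond counting error. KCNJ10 thus lay on the other side of equal expression from most of these astrocyte and oligodendrocyte markers. In the RefSeq table its span overlaps that of KCNJ9 (0.41) among others, and whether reads of this overlap were assigned to KCNJ10 was not tested.

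KCNJ13 had the highest ratio of the 68 members and few reads. It had 3 control and 28 sevoflurane reads, or 0.179 and 2.82 CPM, and its interval ran from 2.29 to 6.34. The gene is known from choroid plexus epithelium. Of the 3 choroid plexus markers, TTR had 2 and 31 reads, FOLR1 0 and 3, and PRLR 104 and 33, with a summed level of 6.31 and 6.44 CPM for TTR and PRLR, the 2 that passed the filter. KCNE2, an auxiliary subunit also known from that epithelium, had 15 and 18 reads (0.91, interval -0.05 to 2.11). The part of choroid plexus RNA in KCNJ13 was not tested. In the RefSeq table the span of KCNJ13 overlaps that of GIGYF2, which had 38 and 36 reads (0.65, interval -0.02 to 1.38). Whether reads of this overlap were assigned to KCNJ13 was not tested. KCNJ1, best known from kidney, had 18 and 4 reads (interval -3.43 to 0.19).

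The large-conductance calcium-activated channel, BK, is formed by KCNMA1 and modified by beta subunits. KCNMA1 had 8343 control and 5346 sevoflurane reads, or 496 and 538 CPM, and differed little (log2 ratio 0.12, interval 0.07 to 0.17). Of 3 beta subunits, 2 were lower beyond counting error, beside 28.1% of all genes tested. KCNMB4, the main beta subunit of neurons, had 1964 and 637 reads, or 117 and 64.1 CPM (-0.86, interval -0.997 to -0.74). KCNMB2, which makes the channel inactivate, had 210 and 47 reads, or 12.5 and 4.73 CPM (-1.37, interval -1.89 to -0.94). KCNMB1, the form of smooth muscle, had 50 and 20 reads and an interval of -1.39 to 0.21. The pore gene and its beta genes thus differed in opposite directions, since the summed beta reads had a log2 ratio of -0.90 (interval -1.02 to -0.78). KCNMB2 shares its span in the RefSeq table with LOC106996994, which had a ratio of -1.36, so the counts of both are uncertain where they overlap. Among the gamma subunits of BK, which do not carry the KCN symbol, LRRC55 was lower, at 89.9 and 49.0 CPM (-0.87, interval -1.02 to -0.73). LRRC38, with 13 and 30 reads, was higher (1.78, interval 0.98 to 3.03), but it reached 1 CPM only in the sevoflurane library.

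The small-conductance channels, which give part of the afterhyperpolarization that follows firing, differed by less than 2-fold. KCNN2 was lower, with 295 and 105 reads, or 17.6 and 10.6 CPM (log2 ratio -0.72, interval -1.07 to -0.41). KCNN1 (83.2 and 98.6 CPM, 0.24) and KCNN3 (22.8 and 28.1 CPM, 0.30) were slightly higher. The sodium-activated channels were split as well. KCNT1 had 1003 and 984 reads, or 59.7 and 99.1 CPM (0.73, interval 0.60 to 0.86), and KCNT2 had 381 and 171 reads, or 22.7 and 17.2 CPM (-0.39, interval -0.67 to -0.13).

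The remaining auxiliary genes had few reads, apart from KCNRG. KCNE subunits are small membrane proteins that alter Kv gating. KCNE5 had 34 control reads and 1 sevoflurane read, or 2.02 and 0.101 CPM, with an interval of -9.67 to -1.75. KCNE4 had 18 and 20 reads (interval -0.08 to 1.91). KCNRG, a regulator that binds Kv subunits inside the cell, had 515 and 204 reads, or 30.6 and 20.5 CPM (-0.57, interval -0.82 to -0.34).

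Of 13 partner genes that are not named KCN, 11 were tested. LRRC38 was the only one at least 2-fold higher, and it passed the filter only through the sevoflurane library, in which it was higher. None was at least 2-fold lower, and the median was -0.13. LRRC26 had 0 and 3 reads and LRRC52 none in either library. Counting differences of any size beyond error, 3 of the 11 were higher and 5 lower, beside 28.4% and 28.1% of all genes tested. The Kv4 partners DPP6 (-0.20) and DPP10 (-0.05, interval -0.15 to 0.05) differed little. Among proteins that place Kv1 channels along the axon, CNTN2 was lower, at 237 and 167 CPM (-0.51, interval -0.59 to -0.42), and so were LGI1 (-0.38) and CNTNAP2 (-0.14), while ADAM22 was higher (0.38, interval 0.32 to 0.43). AMIGO1, which travels with Kv2 channels, was also higher (0.30, interval 0.19 to 0.40).

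Read ratios between subunits that can share a channel do not depend on how the libraries are scaled. They were compared for 13 pairs, which were chosen with the values known, and each interval covers counting error only. The G-protein-gated pairs kept close to their ratio, at a log2 change of -0.04 for KCNJ9 to KCNJ3 (interval -0.19 to 0.10) and 0.19 for KCNJ6 to KCNJ3 (interval -0.06 to 0.45). Other pairs shifted. KCNC2 reads per KCNC1 read were 8.47 (control) and 3.38 (sevoflurane), a change of -1.32 (interval -1.52 to -1.13). KCNMB4 reads per KCNMA1 read were 0.235 and 0.119 (-0.98, interval -1.12 to -0.84), and KCNT2 reads per KCNT1 read 0.380 and 0.174 (-1.13, interval -1.43 to -0.83). Within Kv1, KCNA1 shifted by -0.54 against KCNA2 (interval -0.64 to -0.43) and KCNA4 by -0.48 (interval -0.62 to -0.34). For the Kv4 complex the shifts went the other way, at 0.71 for KCNIP3 to KCND2 (interval 0.54 to 0.88) and 0.63 for KCND3 to KCND2 (interval 0.37 to 0.88).

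**Figure D4:**
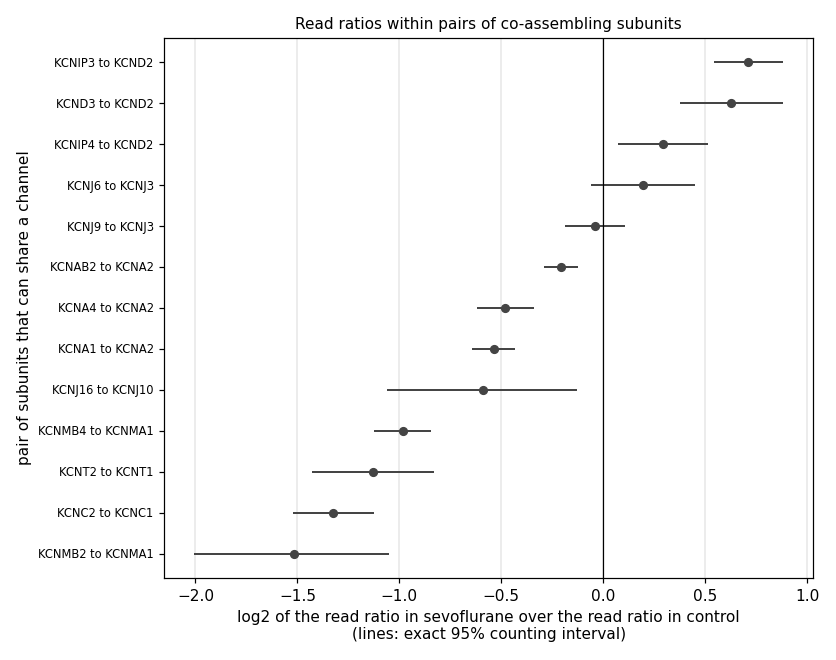
Log2 of the read ratio in the sevoflurane library over that in the control library for 13 pairs of subunits that can share a channel, with exact 95% counting intervals as lines. KCNJ9 to KCNJ3 has a line that crosses no change, whereas KCNC2 to KCNC1 is at -1.32 and KCNIP3 to KCND2 at 0.71.

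Of 5 neuron markers, SYT1 (-0.40), SLC17A7 (-0.13) and NEFM (-0.11) were lower, RBFOX3 was higher (0.83) and SNAP25 had a ratio of 0.02, with a summed level of 4119 control and 3787 sevoflurane CPM. The remaining marker lists had medians of -0.31 (oligodendrocyte precursors), 0.06 (microglia), 0.13 (endothelial cells), 0.03 (mural cells) and 0.33 (meninges). The summed level of the 4 meninges markers was 203 control and 344 sevoflurane CPM, with COL1A1 higher (1.14), and among the mural markers ACTA2 was higher (1.24). The part of cell composition in the ratios of the potassium channel genes was not tested, because 1 library per group gives no spread against which to set it.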

How the data were processed

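RNA sequencing of prefrontal cortex from 1 control and 1 sevoflurane-treated rhesus macaque was analysed. The values that the authors deposited are whole-number counts of reads on each gene, not normalized. The submitters' processing notes name HISAT2 2.0.4, and the counting tool, strand setting, genome build and annotation are not given in the sources used here. Groups were taken from the sample titles.

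TMM factors (edgeR 4.0.16, R 4.3.3) came from the 18050 genes that reached 1 CPM in one or both libraries. Log2 ratios used a prior count of 2, and folds and CPM none. Intervals are exact Clopper-Pearson limits at 95% (scipy 1.17.1), and those of read ratios between genes are exact conditional limits of an odds ratio. They cover counting error only. To be called higher or lower, a gene needed a log2 ratio of 1 or more in either direction and an interval clear of equal expression. Single libraries leave no residual degrees of freedom, so the quasi-likelihood test of edgeR was not fitted. Python 3.11.15, numpy 2.4.6, pandas 2.3.3 and matplotlib 3.10.9 were used, and the procedure was tested on simulated data.

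All members were counted, and 4 of them, with their values, are not reported here by name. The members, classes, partner and marker lists were chosen with earlier results of these data known. All 68 symbols were found in the RefSeq gene table of assembly MMU8v2.0, which served for overlapping and neighbouring genes only. Of them, 30 overlap another gene there, 15 a protein-coding one. The alternatives tried were upper-quartile factors, DESeq2 1.42.0 size factors, library totals, a prior count of 0.5, the control library sampled down to the sevoflurane depth, filters of 1 read or 5 CPM, thresholds of 1.5-fold and 4-fold, and an interval with an error rate of 0.001.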

Additional observations from a re-analysis of the deposited data

How the results depend on the processing

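All 68 members kept the sign of their log2 ratio under the 4 scalings, and no single-gene value (340 in all) left its counting interval under the alternatives run. With the control library sampled down, KCNIP1 changed sign within its interval, from 0.03 to -0.03. Upper-quartile factors, DESeq2 size factors and library totals moved the scaling between the libraries by 0.01, 0.0053 and 0.027 on the log2 scale. The counts of 8 higher and 7 lower members were the same under these scalings, a prior count of 0.5 and an interval with an error rate of 0.001. The counts were 9 and 7 with the control library sampled down, 8 and 8 without a filter, and 7 and 6 with the 5 CPM filter. They moved by over 1.5 times with the threshold alone, to 16 and 11 at 1.5-fold and to 1 and 1 at 4-fold. The latter are KCNJ13 and KCNE5, which passed the filter only through the library in which they were higher. The log2 ratio of the summed reads left its narrow interval with library totals (0.13), without a filter (0.079) and with the 5 CPM filter (0.12). The median of the BK beta subunits was -1.14 without a filter, which adds KCNMB3, and -1.10 with the 5 CPM filter, which drops KCNMB1. That of the KCNH genes was 0.95 with the 5 CPM filter, which drops KCNH6. No paired analysis was possible because the groups share only 1 replicate number, with 1 library each.

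Depth limits the members with few reads. The floor of 3 reads corresponded to 0.179 control and 0.302 sevoflurane CPM, and KCNE5, KCNJ13 and KCNJ1 had at most 4 reads in 1 of the libraries. Variation between animals was not measured.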
